A study of Mus musculus with 5 samples.

Results

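A group of 10 genes that mark the cushion mesenchyme of the embryonic heart, or that drive the epithelial-to-mesenchymal transition (EMT) that forms it, was followed in embryonic mouse ventricles after maternal caffeine. They are Snai1, Snai2, Zeb2, Twist1, Prrx1, Msx1, Msx2, Sox9, Postn and Cdh11, chosen by symbol, and all 10 were found among the 18307 genes of the RefSeq count table. RNA was sequenced from heart ventricles of CD-1 mice, an outbred strain, at embryonic day 10.5 (E10.5). In the caffeine group, dams had been injected each day between E6.5 and E9.5 with 20 mg/kg caffeine, an antagonist of adenosine receptors, and in the vehicle group with 0.9% NaCl. The caffeine group held 3 libraries and the vehicle group 2, and each library was a pool of ventricles of embryos that shared dams, so embryos within a pool were not measured singly. Strain and stage were the same in both groups, and the labels name no engineered allele.

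In the forming heart, endocardial cells of the atrioventricular canal and outflow tract lose their junctions, enter the cardiac jelly and become the mesenchyme from which valves and septa grow. BMP, TGF-beta and Notch signals start this transition, and repressors of the Snail and ZEB families carry it out in part by silencing cadherins of the endocardium or epithelium. The epicardium undergoes a related transition and uses several of the same factors. In a ventricle dissection this tissue can be present only as far as the canal and outflow regions were included.

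Values are read counts scaled by library size times its TMM scaling factor (CPM), computed with edgeR from the deposited estimated counts. RefSeq gene totals ran from 21713381 to 23530555 counts in the caffeine libraries and from 22397199 to 25048134 counts in the vehicle libraries. The 10 genes together took 0.0641%, 0.0519% and 0.0490% of the counts in caffeine replicates 1, 2 and 3, and 0.0478% and 0.0534% in vehicle replicates 1 and 2. All 10 were detected in every library and all 10 passed the low-count filter. Markers of working myocardium summed to between 23052 and 26376 CPM in caffeine and between 28173 and 29925 CPM in vehicle, so the labelled tissue's own markers were abundant in every library. Endocardial and endothelial markers summed to between 1374 and 1577 CPM in caffeine and between 1513 and 1615 CPM in vehicle. Foregut and hepatic endoderm markers ran from 8.17 to 40.5 CPM in caffeine and from 8.53 to 121 CPM in vehicle, where vehicle replicate 2 stood apart, and the part of such tissue in the values below was not tested.

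The stretches of 250 bases upstream of the start sites of 6 of the genes are shown because each holds 1 of the motifs searched and the 6 genes include some with opposite profiles over the libraries, as given further on. They are from RefSeq on GRCm38.p6, 5′ to 3′ on the gene's own strand, in lower case with 3 searched motifs in capitals. The motifs were CAGGTG, the E-box bound by Snail and ZEB repressors (CACCTG on the other strand), TAATTA, a core site of homeodomain proteins such as those of Msx and Prrx genes, and TATAAA, the TATA box (TTTATA on the other strand). Both strands were searched.
Snai1, chr2:167537945-167538194, plus strand: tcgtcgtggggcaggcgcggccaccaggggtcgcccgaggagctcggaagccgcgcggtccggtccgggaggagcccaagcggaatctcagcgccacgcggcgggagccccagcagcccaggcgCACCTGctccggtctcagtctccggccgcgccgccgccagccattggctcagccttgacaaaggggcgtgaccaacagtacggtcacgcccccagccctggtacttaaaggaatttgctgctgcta
Msx1, chr5:37824586-37824835, minus strand: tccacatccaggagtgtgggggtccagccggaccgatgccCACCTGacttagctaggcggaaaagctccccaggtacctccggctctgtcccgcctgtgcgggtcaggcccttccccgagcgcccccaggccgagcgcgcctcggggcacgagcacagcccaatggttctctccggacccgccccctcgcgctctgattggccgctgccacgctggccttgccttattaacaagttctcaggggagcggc
Msx2, chr13:53472781-53473030, minus strand: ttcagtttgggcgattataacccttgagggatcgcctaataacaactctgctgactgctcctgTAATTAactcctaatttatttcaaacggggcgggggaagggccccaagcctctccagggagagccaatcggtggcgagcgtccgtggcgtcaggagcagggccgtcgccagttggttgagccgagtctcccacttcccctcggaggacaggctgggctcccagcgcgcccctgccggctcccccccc
Prrx1, chr1:163313651-163313900, minus strand: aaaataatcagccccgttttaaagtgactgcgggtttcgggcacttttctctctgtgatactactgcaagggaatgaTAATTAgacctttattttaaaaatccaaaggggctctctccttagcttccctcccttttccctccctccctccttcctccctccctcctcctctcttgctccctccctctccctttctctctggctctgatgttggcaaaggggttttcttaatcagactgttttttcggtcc
Twist1, chr12:33957421-33957670, plus strand: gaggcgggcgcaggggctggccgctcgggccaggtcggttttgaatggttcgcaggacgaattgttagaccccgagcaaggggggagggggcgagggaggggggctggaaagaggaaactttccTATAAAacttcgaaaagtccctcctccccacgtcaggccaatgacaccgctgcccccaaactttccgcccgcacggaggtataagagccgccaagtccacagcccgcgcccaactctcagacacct
Postn, chr3:54360857-54361106, plus strand: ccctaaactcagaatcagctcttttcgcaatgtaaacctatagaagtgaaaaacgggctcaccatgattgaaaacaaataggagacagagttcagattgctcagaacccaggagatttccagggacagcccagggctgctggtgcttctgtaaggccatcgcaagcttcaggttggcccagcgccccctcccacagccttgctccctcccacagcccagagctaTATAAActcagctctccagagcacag
There were 11 windows for 7 of the 10 genes, and none for Sox9, Snai2 or Cdh11. A motif stood in the 6 windows shown, which were picked for it, and in none of the other 5. Those were the 4 windows of Zeb2 and a second window of Postn. The share of all windows that hold any of the motifs was not counted. The windows of Snai1 and Msx1 each had 1 E-box, beginning 126 and 210 bases before the start site. Of 32851 upstream windows of the same length in the whole table, 17.2% had an E-box. Msx2 and Prrx1 each had 1 TAATTA, at 187 and 173 bases, against 4.84% of all windows. Twist1 and Postn each had 1 TATAAA, at 126 and 26 bases, against 12.4% of all windows. These are matches of letters only. Msx2 and Prrx1 share a motif, as do Twist1 and Postn, while the libraries ranked differently within each pair. Snai1 and Msx1, the genes with an E-box, were both lower in caffeine replicate 1 than in caffeine replicate 3. So were Twist1 and Msx2, whose windows had no E-box, and Sox9, which had no window. Whether the motifs bear on the levels was not tested.

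Levels between genes were compared as CPM per kilobase of transcript, with lengths of the GENCODE M21 transcripts that carry the same RefSeq accession. Cdh11, the mesenchymal adhesion molecule cadherin-11, was highest at 47.7 ± 10.7 CPM per kilobase (SD over all libraries, n = 5), with a range of 37.0 to 64.6. Postn, a matrix protein secreted by cushion mesenchyme, came next at 22.7 ± 3.65 and did not overlap with it, its highest library being at 26.7. Twist1 (19.3 ± 4.96) overlapped with Postn, and Zeb2 (12.2 ± 1.70) and Sox9 (12.1 ± 1.64) could not be told apart. Snai1 (6.03 ± 0.939), Msx1 (5.68 ± 1.53), Msx2 (3.66 ± 1.07) and Snai2 (3.46 ± 0.709) each overlapped with the next, but the highest Snai1 library, at 7.62, lay below the lowest Sox9 library, at 10.7. Prrx1 was lowest at 0.706 ± 0.192 CPM per kilobase, and its highest library (1.02) lay below the lowest of Msx2 (2.49).

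The effect of early caffeine exposure on these genes was read from the 3 caffeine libraries set against the 2 vehicle libraries. None of the 10 genes passed a false discovery rate (FDR) of 0.05 in edgeR's quasi-likelihood test, each with a Benjamini-Hochberg adjusted p of 0.999 over 13829 genes, of which 0.00723% passed. None had an unadjusted p under 0.05, against 5.2% of all genes tested, and DESeq2 and limma-voom likewise passed 0 of the 10 at either threshold. The log2 fold changes, caffeine minus vehicle, ran from -0.17 to 0.36 with a median of 0.16, against a median of 0.013 over all genes tested. Of the 10, 8 were positive and 2 negative, where 53% of all genes tested were positive. The median rested in part on single libraries: it was 0.037 without caffeine replicate 3 and 0.27 without vehicle replicate 1. In these pooled tissues a smaller number of cells of a type and less RNA per cell cannot be told apart.

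**Figure D1:**
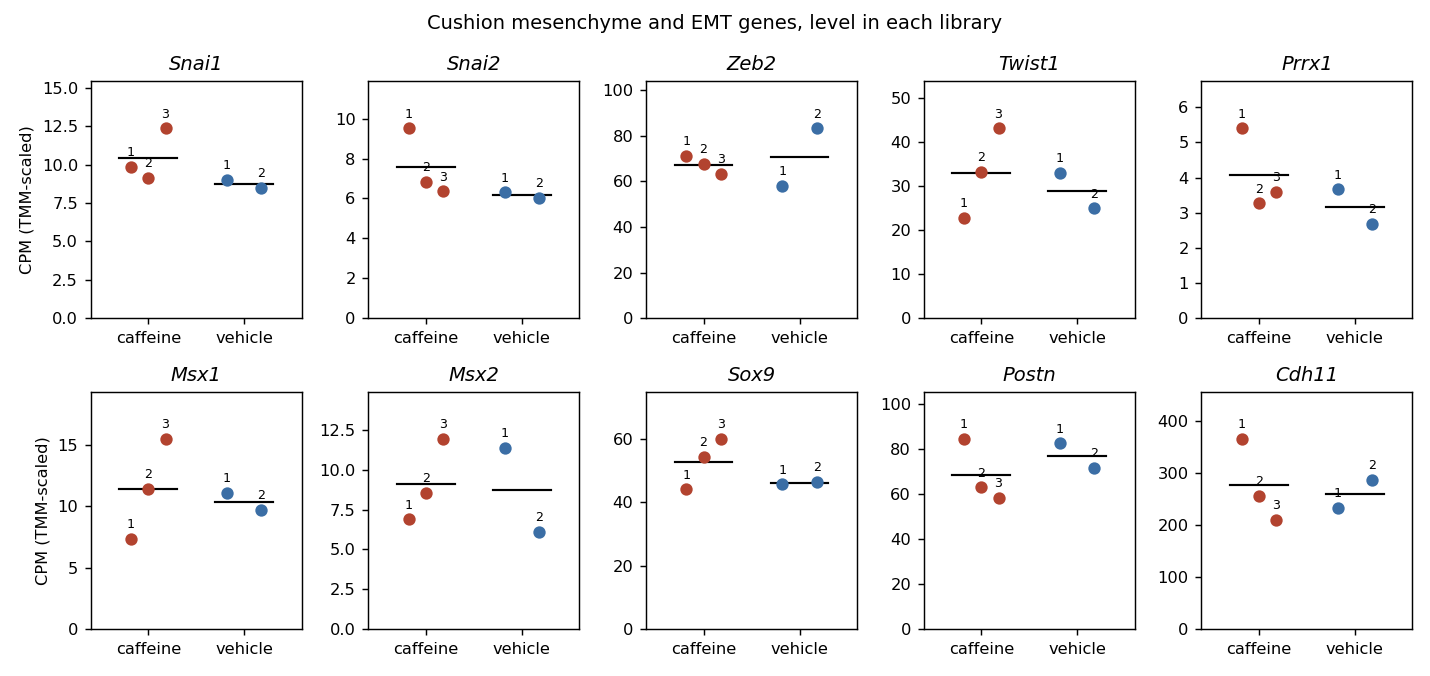
Level of each of the 10 genes in each library, in CPM on an axis that starts at 0. Points are libraries with their replicate number, caffeine left and vehicle right, and the bar is the group mean. The groups overlapped for all genes but Snai1 and Snai2, whose caffeine libraries all lay above both vehicle libraries.

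The Snail and ZEB repressors were taken first. Snai1, a zinc finger repressor needed for EMT in many tissues, had 9.84, 9.15 and 12.3 CPM in caffeine replicates 1, 2 and 3, and 9.02 and 8.47 CPM in vehicle replicates 1 and 2. All caffeine libraries lay above both vehicle libraries, though caffeine replicate 2 exceeded vehicle replicate 1 by little. The means were 10.4 ± 1.68 CPM in caffeine (SD, n = 3) and 8.75 ± 0.389 CPM in vehicle (SD, n = 2). The log2 fold change was 0.26 (SE 0.20, 95% interval -0.17 to 0.68), and it was 0.12 without caffeine replicate 3. On mm10, Snai1 occupies bases 167538227 to 167542811 of chromosome 2, plus strand, in the deposited table, whose start is 32 bases past the RefSeq start site used above. Snai2, the Slug repressor that acts downstream of Notch in the endocardium, had 9.51, 6.83 and 6.35 CPM in caffeine, and 6.30 and 6.01 CPM in vehicle. Its groups did not overlap either, but only caffeine replicate 1 stood clearly above, and without it the log2 fold change was 0.10 in place of 0.30 (SE 0.23, 95% interval -0.20 to 0.79). The groups did not overlap for these 2 of the 10 genes, both with caffeine higher, and for none with caffeine lower. Over all genes tested the share was 20.4%, made up of 11.2% with caffeine higher and 9.27% with caffeine lower.

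Zeb2, a zinc finger and homeodomain repressor that binds Smads and paired E-boxes, had 70.9, 67.7 and 63.0 CPM in caffeine, and 57.8 and 83.1 CPM in vehicle. The vehicle libraries bracketed all caffeine libraries, so the lowest and the highest value both belonged to vehicle. Its log2 fold change was -0.067 (SE 0.16, 95% interval -0.42 to 0.28), and it was 0.19 without vehicle replicate 2 and -0.31 without vehicle replicate 1. The count of Zeb2 shares a stretch of the genome with the RefSeq gene Gm13476 on the other strand, which had 43.0 to 73.1 counts in caffeine and 41.5 to 71.5 counts in vehicle, small beside the 1389 to 1707 and 1402 to 1824 counts of Zeb2.

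Twist1 and Prrx1 are mesenchymal transcription factors, the first a basic helix-loop-helix protein of proliferating cushion mesenchyme and the second a homeodomain protein also found in epicardium-derived and limb mesenchyme. Twist1 had 22.7, 33.3 and 43.1 CPM in caffeine, and 33.0 and 25.0 CPM in vehicle. Caffeine replicates 1 and 3 were the lowest and the highest of all libraries, so that the spread within caffeine exceeded the difference between group means, 33.0 ± 10.2 CPM in caffeine (SD, n = 3) and 29.0 ± 5.68 CPM in vehicle (SD, n = 2). The log2 fold change was 0.19 (SE 0.25, 95% interval -0.39 to 0.77), and it had the other sign, -0.050, without caffeine replicate 3. Prrx1 had 5.40, 3.27 and 3.59 CPM in caffeine, and 3.67 and 2.69 CPM in vehicle. Here caffeine replicate 1 was the highest library, the reverse of Twist1. Its log2 fold change of 0.36 was the largest of the 10 (SE 0.29, 95% interval -0.27 to 0.99), on 76 to 130 counts in caffeine and 59 to 89 counts in vehicle, and it was 0.11 without caffeine replicate 1.

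Msx1 and Msx2 encode closely related homeodomain factors that act downstream of BMP signals in the atrioventricular canal. Msx1 had 7.35, 11.4 and 15.5 CPM in caffeine, and 11.1 and 9.70 CPM in vehicle. As for Twist1, caffeine replicate 1 was lowest and caffeine replicate 3 highest, the second being 2.11 times the first. The log2 fold change was 0.13 (SE 0.27, 95% interval -0.47 to 0.74), and it was -0.15 without caffeine replicate 3. Msx2 had 6.89, 8.55 and 11.9 CPM in caffeine, and 11.4 and 6.10 CPM in vehicle. The 2 vehicle libraries lay slightly farther apart than the lowest and highest caffeine libraries, and the log2 fold change of 0.055 (SE 0.30, 95% interval -0.61 to 0.72) ran from -0.35 without vehicle replicate 2 to 0.58 without vehicle replicate 1.

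The antisense gene Msx1as lies on chromosome 5 from 37820564 to 37822751 inside the span of Msx1 (37820491 to 37824585, minus strand). It had 11.7, 35.7 and 22.7 estimated counts in caffeine replicates 1, 2 and 3, and 8.18 and 5.01 in vehicle replicates 1 and 2. The groups did not overlap, and its log2 fold change was 1.85 (SE 0.57), with an unadjusted p of 0.00652 and an edgeR adjusted p of 0.725, so it did not pass. Unless counting used strand, reads cannot be assigned between the 2 genes with certainty. With the 2 antisense genes added to Msx1 and Zeb2, an alternative chosen after the data were seen, Msx1 had a log2 fold change of 0.22 and Zeb2 one of -0.065, and the median of the 10 genes was 0.19.

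Sox9, an HMG-box factor that keeps cushion mesenchyme proliferating and later turns on cartilage-like matrix genes in valves, had 44.1, 54.4 and 60.0 CPM in caffeine, and 45.6 and 46.5 CPM in vehicle. Caffeine replicate 1 lay below both vehicle libraries and the other caffeine libraries above them. The group means were 52.8 ± 8.05 CPM in caffeine (SD, n = 3) and 46.1 ± 0.609 CPM in vehicle (SD, n = 2), with a log2 fold change of 0.20 (SE 0.15, 95% interval -0.14 to 0.53). Without caffeine replicate 1 it was 0.31, and without caffeine replicate 3 it was 0.10.

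Postn and Cdh11 encode a matrix protein and an adhesion molecule of the mesenchyme rather than transcription factors. Postn had 84.4, 63.0 and 58.4 CPM in caffeine, and 82.5 and 71.5 CPM in vehicle. Caffeine replicates 2 and 3 were below both vehicle libraries and caffeine replicate 1 above them, giving 68.6 ± 13.9 CPM in caffeine (SD, n = 3) and 77.0 ± 7.78 CPM in vehicle (SD, n = 2). Its log2 fold change of -0.17 (SE 0.17, 95% interval -0.53 to 0.20) was the lowest of the 10, and it was -0.34 without caffeine replicate 1 and -0.064 without caffeine replicate 3. Cdh11 had 365, 255 and 209 CPM in caffeine, and 232 and 286 CPM in vehicle. The caffeine libraries again held both the highest and the lowest value, and the log2 fold change of 0.093 (SE 0.22, 95% interval -0.41 to 0.60) was -0.16 without caffeine replicate 1.

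**Figure D2:**
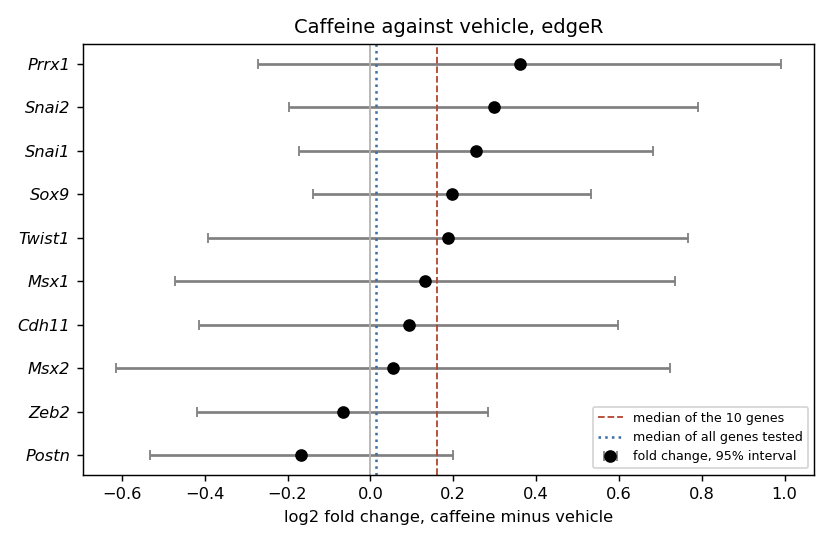
The log2 fold change of each of the 10 genes, caffeine minus vehicle, as points with 95% intervals from the edgeR fit. The dashed line is the median of the 10 genes (0.16) and the dotted line that of all genes tested (0.013). Every interval includes 0, and the widest, that of Msx2, runs from -0.61 to 0.72.

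The intervals bound what these 5 libraries could show. On the linear scale the interval of Zeb2 spanned a ratio of caffeine to vehicle from 0.749 to 1.22, and that of Postn from 0.691 to 1.15. For Prrx1 it reached from 0.829 to 1.99, so that a level nearly doubled in caffeine is within its interval. A p that misses the threshold therefore does not show that the groups were alike.

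Over the libraries the 10 genes did not move as a block. On log2 CPM centred on each gene's own mean, Twist1 and Msx1 were the nearest pair, with a root mean square difference of 0.090. Msx2 was nearest to Twist1 (0.18), and Sox9 and Snai1 were nearest to each other (0.14). Snai2 and Prrx1 formed another near pair (0.15), and Cdh11 was nearest to Snai2 (0.17). The farthest pair was Msx2 and Cdh11, at 0.63.

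**Figure D3:**
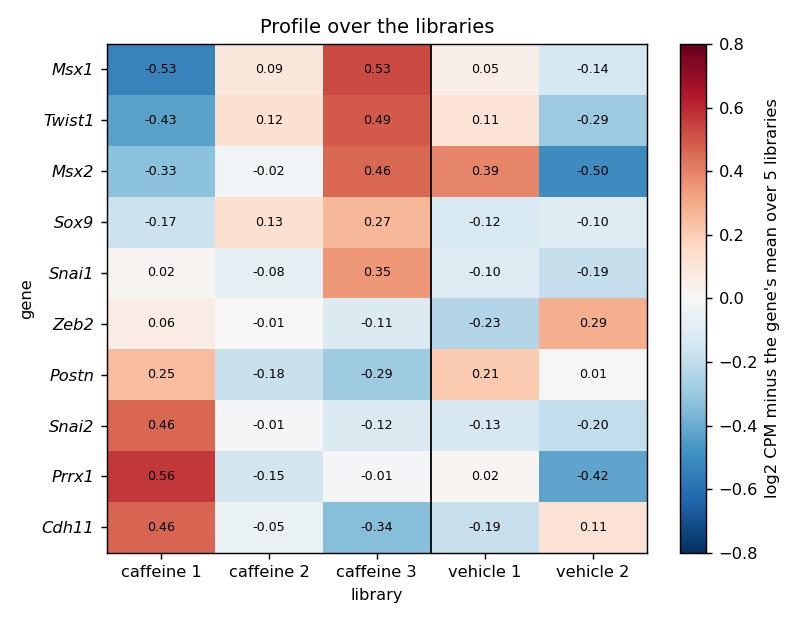
Log2 CPM of each gene minus its own mean over the 5 libraries, caffeine libraries left of the line and vehicle libraries right of it. Genes are ordered by the difference between caffeine replicates 1 and 3, so that Msx1 (-0.53 and 0.53 in these libraries) is at the top and Cdh11 (0.46 and -0.34) at the bottom.

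The split followed caffeine replicates 1 and 3. Caffeine replicate 1 minus caffeine replicate 3 was -1.07 for Msx1, -0.92 for Twist1, -0.78 for Msx2, -0.44 for Sox9 and -0.32 for Snai1, in log2 CPM. The same difference was 0.80 for Cdh11, 0.58 for Prrx1, 0.58 for Snai2, 0.53 for Postn and 0.17 for Zeb2. Over all genes tested the 5th percentile of this difference was -0.63 and the 95th was 0.78, so 3 of the 10 genes lay below the first and 1 above the second. Of the 10 genes, 5 were highest in caffeine replicate 3 and 4 in caffeine replicate 1, against 24.6% and 23.4% of all genes tested. Vehicle replicate 1 was highest for 0 and vehicle replicate 2 for 1, against 21.8% and 18.8%. Vehicle replicate 2 was lowest for 4 of the 10, against 18.7% of all genes. Caffeine replicates 1 and 3 were lowest for 3 and 2, against 22.8% and 22.3%, and vehicle replicate 1 for 1, against 24.6%. Between the vehicle libraries, replicate 1 minus replicate 2 was 0.89 for Msx2, at percentile 98.7 of all genes, and -0.52 for Zeb2, at percentile 8.29.

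A wider list of 64 genes of endocardial EMT, cushion matrix and its signals was read in the same fit. Of its 63 tested genes none passed FDR 0.05, in either direction, and none had an unadjusted p under 0.05. DESeq2 and limma-voom passed none, with 0 and 1 at an unadjusted p under 0.05. The median log2 fold change was 0.045, with 38 positive and 25 negative. The 4 with the smallest p were Sox4 (log2 fold change 0.38, SE 0.19), Smad6 (0.26, SE 0.14), Bmp4 (0.37, SE 0.20) and Col1a1 (0.74, SE 0.37), with edgeR adjusted p between 0.982 and 0.999. Smad6, an inhibitor of BMP signals expressed in cushions, had 113, 111 and 132 CPM in caffeine, and 104 and 93.4 CPM in vehicle. Bmp4, a ligand of the outflow tract, had 21.3, 15.5 and 13.3 CPM in caffeine, and 13.0 and 12.8 CPM in vehicle. Neither group pair overlapped, as for 5 of the 63 in all, against 20.4% of all genes tested. Sox4, an HMG-box factor of cushion development, had 222, 142 and 156 CPM in caffeine, and 121 and 145 CPM in vehicle, which overlapped. Col1a1, a chain of type I collagen, had 337, 285 and 147 CPM in caffeine, and 135 and 172 CPM in vehicle. Its groups overlapped through caffeine replicate 3, which lay between the vehicle libraries.

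In the wider list, 46 of 63 genes lay between the 5th and the 95th percentile of caffeine replicate 1 minus replicate 3, 11 lay below and 6 above. The genes named for it here were chosen after their values were seen. The 11 were Col2a1, Twist2, Tagln, Tbx2, Acta2, Has2, Bmp2, Snai3, Hapln1, Lef1 and Tbx3. Tbx2, a T-box repressor of chamber genes in the canal, had 10.4, 16.3 and 25.1 CPM in caffeine, and 17.5 and 10.1 CPM in vehicle. Bmp2, the canal's inducer of EMT, had 15.9, 21.9 and 33.1 CPM in caffeine, and 25.9 and 18.4 CPM in vehicle. In both genes, as in Msx2, vehicle replicate 1 was also above vehicle replicate 2. Has2, which makes the hyaluronan of the jelly, had 22.8, 38.8 and 48.1 CPM in caffeine, and 31.4 and 39.0 CPM in vehicle. Col2a1, a cartilage collagen and target of Sox9, had 104, 213 and 335 CPM in caffeine, and 228 and 216 CPM in vehicle. Caffeine replicate 1 was below both vehicle libraries for Has2 and Col2a1 and caffeine replicate 3 above them. Acta2, smooth muscle actin, had 1249, 2141 and 2769 CPM in caffeine, and 2451 and 2135 CPM in vehicle, with caffeine replicate 1 below both vehicle libraries and caffeine replicate 3 above them.

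The 6 genes above the 95th percentile were Lum, Dcn, Col1a2, Col1a1, Thbs2 and Fbln2. Genes of matrix proteins stood on either side and between: the difference was -1.69 for Col2a1 and -0.82 for Hapln1, -0.45 for Acan and -0.29 for Vcan, and 0.086 for Fn1 and 0.18 for Col3a1. Lum, the proteoglycan lumican, had 11.3, 4.38 and 2.32 CPM in caffeine, and 4.86 and 4.97 CPM in vehicle. Col1a2, the other chain of type I collagen, had 368, 183 and 147 CPM in caffeine, and 176 and 183 CPM in vehicle. For Col1a2 caffeine replicate 1 alone lay far from the rest. In the same libraries the summed markers of epicardium and proepicardium were 520, 449 and 383 CPM in caffeine replicates 1, 2 and 3, the order of Cdh11, and 373 and 425 CPM in vehicle replicates 1 and 2. Most of that sum was Upk3b and Tbx18, at means of 149 and 120 CPM over all libraries. Of the 8 markers, 5 were higher in caffeine replicate 1 than in caffeine replicate 3 (Tbx18, Tcf21, Aldh1a2, Upk3b and Msln) and 3 were lower (Wt1, Upk1b and Sfrp5). Markers of neural crest and pharyngeal arch mesenchyme summed to 37.7, 45.8 and 53.7 CPM in caffeine, the order of Twist1 and Msx1, and to 44.4 and 38.2 CPM in vehicle. Most of that sum was Prrx2 at a mean of 39.7 CPM, which also stands in the wider list. Of the 12 markers of that list in the table, 11 were lower in caffeine replicate 1 than in caffeine replicate 3. Only 5 of the 12 passed the low-count filter, so this tally rests in part on values near the floor. Dlx1, for example, had 0.0415 and 0.0454 CPM in these libraries. The crest markers Sox10 and Tfap2a stayed at or below 0.215 and 0.454 CPM. Of other marker lists, 10 of 10 genes of foregut and hepatic endoderm and 6 of 7 macrophage genes were higher in caffeine replicate 1 than in caffeine replicate 3. Lower there were 7 of 8 erythroid genes and 6 of 7 genes of outflow tract and second heart field, with 0 higher in the latter. Of the endoderm, outflow and macrophage genes, 8, 4 and 5 passed the low-count filter, so these tallies too rest in part on values near the floor. Alb, for example, had 0.706 and 0 CPM in caffeine replicates 1 and 3. Over all genes tested the median of caffeine replicate 1 minus replicate 3 was 0.0025 in log2 CPM. Working myocardium had 6 genes higher and 4 lower, as had endocardium and endothelium, and atrial and sinus venosus markers had 4 and 4. The part of these tissues in the differences between caffeine libraries was not tested.

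**Figure D4:**
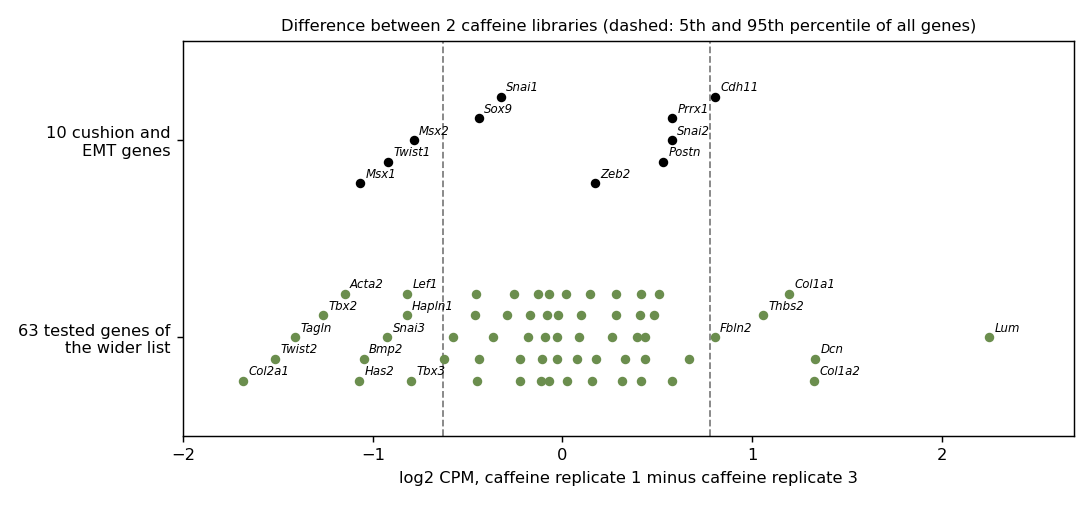
Log2 CPM of caffeine replicate 1 minus caffeine replicate 3 for the 10 genes (upper row) and the 63 tested genes of the wider list (lower row). Dashed lines are the 5th and 95th percentile of all genes tested (-0.63 and 0.78). Msx1, Twist1 and Msx2 lie left of the first line and Cdh11 right of the second, and wider-list genes outside the lines are named.

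Among the genes with the profile nearest to the mean of the 10 were Tbc1d22a, Capn10, Nbeal2 and Cxxc1. Their root mean square differences from it were 0.0092 to 0.020 over the 5 libraries. The 11937 genes compared left out the 10 but not the wider list. The mean profile itself was shallow, at 0.035, -0.015 and 0.12 in caffeine replicates 1, 2 and 3, and 0.00046 and -0.14 in vehicle replicates 1 and 2, because the opposite profiles cancelled in it.

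Postn and Prrx1 each had 3 RefSeq transcripts, and the other 8 genes had 1. None of the 14 transcripts passed FDR 0.05 in edgeR and none had an unadjusted p under 0.05, where 0% and 7.36% of 18418 transcripts did. Periostin mRNA is known to be spliced in several forms near its 3′ end. NM_001198765 made up 39.6%, 25.1% and 36.0% of the Postn counts in caffeine, and 42.4% and 42.2% in vehicle. NM_001198766 made up 40.7%, 57.8% and 46.3% in caffeine, and 33.0% and 44.1% in vehicle. The first form had a lower share in each caffeine library than in either vehicle library, while the shares of the second overlapped. How many of all transcripts have shares that do not overlap was not counted. For gene levels the groups did not overlap in 20.4% of all genes tested, so such a split is common with 3 and 2 libraries. In diffSpliceDGE's gene-level F test, which asks whether transcripts of a gene shift against each other, Postn had an adjusted p of 0.712 and Prrx1 one of 0.950, where 3.07% of 2897 genes passed. Neither had an unadjusted p under 0.05 (0.356 and 0.748), against 17.7% of those genes. For Prrx1, NM_175686 took 26.3%, 27.5% and 52.1% of the counts in caffeine, and 26.0% and 26.7% in vehicle. Caffeine replicate 3 alone departed, on 79 counts in all.

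**Figure D5:**
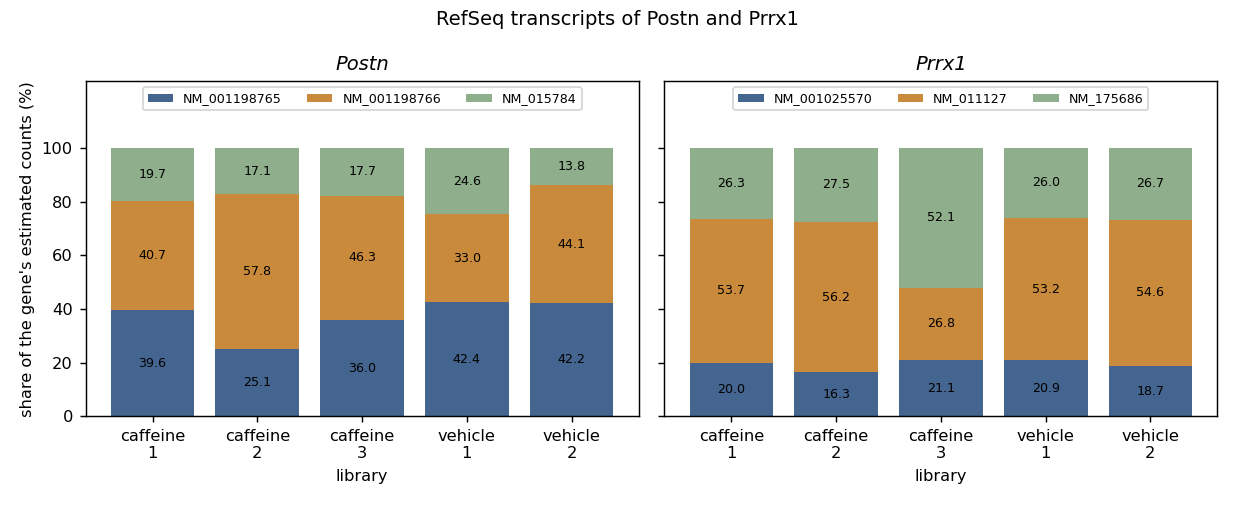
Share of the estimated counts of Postn (left) and Prrx1 (right) given to each RefSeq transcript, in percent, caffeine libraries left of vehicle libraries. For Postn NM_001198765 took 25.1% to 39.6% in caffeine and 42.2% to 42.4% in vehicle, and for Prrx1 caffeine replicate 3 gave 52.1% to NM_175686.

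The Ensembl transcripts, taken up after the data were seen, gave more forms. Of 7540 genes tested for usage there 6.94% passed, and Postn had an unadjusted p of 0.0447 and an adjusted p of 0.209. The share of those genes with an unadjusted p under 0.05 was not counted. In the RefSeq usage test it was 17.7%. For Zeb2 the adjusted p was 0.648. Its form Zeb2-201 took 14.8%, 13.7% and 14.7% of the Zeb2 counts in caffeine, and 34.7% and 19.2% in vehicle. All caffeine libraries lay below both vehicle libraries, and the vehicle libraries differed from each other more than vehicle replicate 2 did from caffeine. How many of all Ensembl forms do not overlap was not counted either. The log2 fold change of that form was -0.92 (SE 0.20) with an unadjusted p of 0.00305 and an edgeR adjusted p of 0.257, in a table where 0% of 34905 transcripts passed and 10.7% had an unadjusted p under 0.05. How the authors' counting shared reads among forms carries an error that these tests do not include.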

How the data were processed

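The authors deposited tables of estimated counts per gene and per transcript, on RefSeq and on Ensembl (release 71) gene models, which the file headers name. TopHat, Partek, mm10 and GRCm38 are named in the submitters' processing notes, with no versions, and whether counting used strand is not given in the sources used here. Nothing but the labels' pooling says how independent the libraries are, so p-values measure the spread between these pools. Deposited stops were 1 base past the RefSeq end for 5909 genes with the same start, so ends are given as the stop minus 1.

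Estimated counts were rounded, filtered with filterByExpr, scaled by TMM (factors 0.970 to 1.02) and tested with edgeR 4.0.16 in R 4.3.3 (glmQLFit with robust estimation, two-sided, Benjamini-Hochberg over all features, threshold 0.05). The biological coefficient of variation, in common over genes, was 0.145. The standard error (SE) is the absolute fold change (log2) divided by the root of F, and 95% intervals use the fit's t quantile. Transcript usage used diffSpliceDGE. Centred profiles used log2 CPM with a prior count of 2, and the profile likeness took genes whose mean log2 CPM reached 1. Alternatives used DESeq2 1.42.0 and limma 3.58.1. Steps were tested on simulated data. The genes and lists were chosen with earlier results of these data known. The text names all 10 genes, the 4 wider-list genes with the smallest p and, of the 5 genes nearest in profile, all but 1 that is not reported here.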

Additional observations from a re-analysis of the deposited data

How the results depend on the processing

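None of the 10 genes passed FDR 0.05 under any of the 17 alternatives run for them, and none of the lists' alternatives but the block gave a call. Of 159 single-gene values under alternatives, 148 kept their sign and 11 changed it, and Prrx1 was not tested at 5 CPM in 2 libraries. With the replicate number as a block, Twist1 had -0.061, Msx1 -0.18 and Msx2 -0.13, and the median of the 10 genes was 0.044. In that fit 11 wider-list genes had an unadjusted p under 0.05, of which 1 passed (Col1a1, log2 fold change 1.02, SE 0.16, edgeR adjusted p = 1.14e-06). How many of all genes had such a p with the block was not counted. The 11 therefore cannot be set against the 5.2% of the main fit. At FDR 0.05 the block passed 52 of all 13829 genes, where the main fit passed 1. Caffeine replicate 3 has no vehicle library of its number, so the blocked contrast rests on the pools numbered 1 and 2 alone. It thus leaves out the library where Col1a1, at 147 CPM, lay between the vehicle libraries. Deviations of same-numbered libraries correlated across genes at -0.022 and 0.13, and those of caffeine replicate 3 and vehicle replicate 1 at 0.13. The deviations of the 2 vehicle libraries mirror each other, so these values cannot decide whether pools were paired. No label names a pairing, so the numbers were not taken to pair the pools. Leaving out 1 library, the median ran from 0.037 to 0.27, and the counts of genes, transcripts and usage calls among the 10 genes and of wider-list calls stayed at 0. Twist1 ran from -0.050 to 0.40, with -0.025 without vehicle replicate 2. Msx1 ran from -0.15 to 0.37, Msx2 from -0.35 to 0.58 with -0.18 without caffeine replicate 3, Zeb2 from -0.31 to 0.19, and Cdh11 from -0.16 to 0.26 with -0.051 without vehicle replicate 1. Without caffeine replicate 1, Postn and Twist1 had unadjusted p of 0.0394 and 0.0398 (edgeR adjusted p = 0.747). The share of all genes with an unadjusted p under 0.05 in that fit was not counted. There 18 of 13657 genes passed FDR 0.05, more than in the main fit, so these 2 values cannot be read as particular to the list. The causes were not tested. Over all genes 1 passed, against 6 with no low-count filter, 18 with DESeq2, 2 with Ensembl counts, 52 with the block and 0 to 18 without 1 library. For transcript usage 89 genes passed, against 3 with the block and 15 to 53 without 1 library. Without scaling factors the median of all genes moved to 0.073 and that of the 10 genes to 0.22. Depth limits Prrx1 most, at 59 to 130 counts.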
